A study of Mus musculus with 16 samples.

Results

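The fatty acid elongases and desaturases described here are the 10 genes Elovl1 to Elovl7 and Fads1 to Fads3, taken by symbol from the 20295 genes of a count table made from RNA-seq of brown adipocytes. The cells were BAT-LgT, a mouse brown preadipocyte line immortalized with SV40 large T antigen, wild type by the labels and differentiated in culture until day 7. They received vehicle, triacsin C (TC, 5 µM) or etomoxir (ETO, 50 µM) for 1 h and then SR-3420 (10 µM) or no SR-3420 for 3 h, which gave 6 groups and 16 samples: Vehicle and SR-3420 with 2 samples each, and TC, TC+SR-3420, ETO and ETO+SR-3420 with 3 each. The dose of SR-3420 is that of the labels, and the study's figure legends give another. SR-3420 binds ABHD5 and thereby activates the triglyceride lipase ATGL without a receptor or cAMP. Triacsin C inhibits long-chain acyl-CoA synthetases, which activate free fatty acids, and etomoxir inhibits CPT1, which admits activated fatty acids to mitochondria. The comparisons address how these genes respond when lipolysis is switched on, and whether the response differs when fatty acid activation or oxidation is blocked. Every group is 1 cell line, so no group stands for tissue or for animals. The study's methods describe 3 independent experiments. The p-values weigh a difference between group means against the spread between samples within groups, shared over all 16 samples.

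Long-chain fatty acids are lengthened in the endoplasmic reticulum in a cycle whose opening condensation is carried out by an ELOVL enzyme, with malonyl-CoA as the donor of carbon. The desaturases FADS2 and FADS1 place double bonds near the carboxyl end of fatty acids. They act in turn with ELOVL5 and ELOVL2 to turn dietary linoleic and alpha-linolenic acid into long polyunsaturated fatty acids. The ELOVL enzymes, FADS1 and FADS2 work on acyl-CoA, while FADS3 acts on sphingoid bases. In liver and fat several of these genes are well known targets of SREBP-1, LXR and PPAR. Elovl3 is a gene of brown fat and skin that is strongly raised in brown fat by cold.

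The 3 Fads genes lie side by side in 155.3 kb of chromosome 19 (mm9, the build of the count table), with no other gene of the table between them. Fads3 (chr19:10116038-10134161, plus strand) and Fads2 (chr19:10138654-10175993, minus strand) point toward each other with 4.5 kb between their ends, and the start of Fads1 (chr19:10257378-10271362, plus strand) lies 81.4 kb beyond the start of Fads2. The coding transcript of each has 12 exons in the annotation. The elongase genes are scattered: Elovl1 on chromosome 4, Elovl2 and Elovl7 on 13, Elovl3 on 19, Elovl4 and Elovl5 on 9, and Elovl6 on 3. Elovl1 overlaps Cdc20 on the other strand (69.9 to 162 CPM) and Elovl3 overlaps Pitx3 on the other strand (0 to 1.71 CPM). Whether reads were counted by strand is not given in the sources used here, so the values of these 2 genes may hold reads of their partners.

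The promoters of the neighbours Fads2 and Fads3 are shown because of their calls in the main edgeR test. There SR-3420 lowered Fads2 in 1 setting and raised Fads3 in the other 2. Each window runs from 250 bases before to 50 bases after the start. The sequences are from RefSeq on GRCm38.p6, another build than that of the counts. Capitals mark CCAAT on either strand. RefSeq promoters were matched for 8 of the 10 members, the 2 without an entry being Elovl3 and Fads1.
Fads2 (chr19:10101454-10101753, minus strand): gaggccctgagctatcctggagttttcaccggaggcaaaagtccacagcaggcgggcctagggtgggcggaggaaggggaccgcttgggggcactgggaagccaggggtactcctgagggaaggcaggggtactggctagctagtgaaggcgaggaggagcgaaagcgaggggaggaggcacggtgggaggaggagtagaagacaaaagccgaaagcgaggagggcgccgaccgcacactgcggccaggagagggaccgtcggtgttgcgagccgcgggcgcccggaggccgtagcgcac
Fads3 (chr19:10041298-10041597, plus strand): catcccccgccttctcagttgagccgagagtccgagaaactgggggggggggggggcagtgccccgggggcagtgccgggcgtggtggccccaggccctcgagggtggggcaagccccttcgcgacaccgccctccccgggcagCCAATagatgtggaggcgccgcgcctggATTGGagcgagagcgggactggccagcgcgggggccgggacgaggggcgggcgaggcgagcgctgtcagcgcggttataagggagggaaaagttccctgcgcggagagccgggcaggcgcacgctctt
The 4 motifs searched on both strands were the SREBP site TCACNCCAC, the NF-Y box CCAAT, the E-box CACGTG and the nuclear receptor motif AGGTCA. No matches in the windows of the members overlapped one another. The Fads2 window held none of the 4, and the Fads3 window held CCAAT in 2 places, -106 and -78 relative to the start. Among the elongases, Elovl5 held 2 CCAAT and 1 CACGTG, Elovl4 held 1 of each, Elovl1 held 1 CCAAT and, in the window of its other start, 1 AGGTCA, and Elovl6 held 1 AGGTCA. In all 32851 promoters of the table, TCACNCCAC was found in 1.24%, CCAAT in 37.4%, CACGTG in 7.15% and AGGTCA in 16.3%, so these matches describe the letters of the windows and no more.

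Sequencing gave 9452861 to 25670624 counts per sample, and 12786 genes passed the filter on low counts, among them 9 of the 10 members. The adipocyte genes Fabp4 (3030 to 9220 CPM, counts per 1000000 of TMM-scaled library), Adipoq (806 to 3400 CPM) and Plin1 (425 to 1970 CPM) were abundant in every sample. Of the brown fat genes on the list, Ppargc1a had 22.3 to 85.8 CPM, Prdm16 5.99 to 40.1 CPM and Cidea 8.29 to 35.3 CPM. Ucp1 stayed at 0.461 to 3.66 CPM and Dio2 at 0 to 0.127 CPM. The cells are called brown adipocytes here by their label. The macrophage list summed to 3.97 to 17.9 CPM and the endothelial list to 0.108 to 1.26 CPM over the groups, with Adgre1, Ptprc, Pecam1, Cdh5 and Tek at 0 in some samples. No sample stood apart in a way that led to its removal.

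Per kilobase of counted length, 5 members were abundant and 5 were low. In Vehicle cells Fads1, the delta-5 desaturase, had 138 RPKM (CPM per kilobase, mean of 2 samples) and Fads2, the delta-6 desaturase that opens the polyunsaturated pathway, had 120 RPKM, with overlapping samples. Elovl5, the elongase of polyunsaturated fatty acids, followed at 75.7 RPKM and overlapped Fads3 at 67.7 RPKM, a desaturase that acts on sphingoid bases. Elovl1, which lengthens saturated and monounsaturated very long chains, had 51.3 RPKM and lay below Fads3 without overlap. The other elongases were lower by an order of magnitude or more: Elovl3 had 4.93 RPKM, Elovl6, which turns palmitate into stearate, 3.63 RPKM, Elovl4, known for ultra long chains in retina and skin, 1.56 RPKM, and Elovl7 0.0947 RPKM. Elovl2, another elongase of polyunsaturated fatty acids, was close to undetected. It had 2 counts in all, 1 each in ETO replicates 2 and 3, and 0 in the other 14 samples, where a count of 0 allows up to 0.12 to 0.323 CPM, by the depth of the sample. This limit, 3 counts, covers counting error alone.

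The order among the abundant genes changed between groups. Fads1 led in Vehicle (138 RPKM), SR-3420 (109 RPKM), TC (153 RPKM) and ETO (118 RPKM), and Fads3 led in TC+SR-3420 (121 RPKM) and ETO+SR-3420 (99.8 RPKM). In TC+SR-3420 the samples of Fads3 lay above those of Fads1 (105 RPKM) without overlap, and in ETO+SR-3420 they overlapped those of Fads1 (89.7 RPKM). In SR-3420 cells Fads1, Fads3 (102 RPKM) and Fads2 (98.9 RPKM) could not be told apart in order, since each overlapped the next. Elovl1 and Elovl5 exchanged places likewise. By group means Elovl5 was above Elovl1 in Vehicle and ETO cells and below it in the other 4 groups. The samples of the 2 genes did not overlap in Vehicle and TC and overlapped in the other 4 groups, ETO included.

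Among the desaturases, SR-3420 raised Fads3 and lowered Fads1 and Fads2, with the test passed in some of the 3 settings for each gene. Fads3 rose 1.5-fold over Vehicle with SR-3420 alone and 1.62-fold with etomoxir. Fads1 fell to 0.684 of its TC level and to 0.761 of its ETO level, and Fads2 to 0.612 of its TC level. In bulk RNA, fewer cells of a type and less RNA per cell cannot be told apart.

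**Figure D1:**
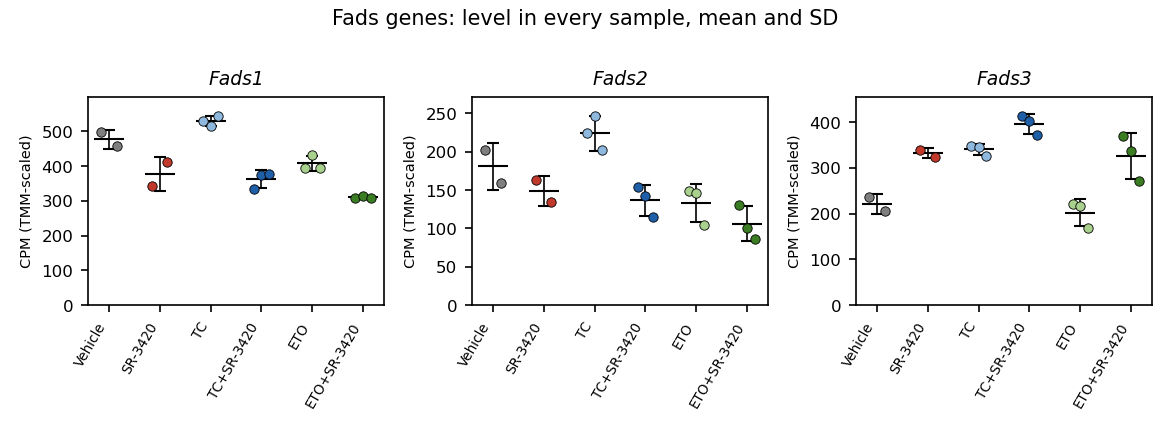
Level of Fads1, Fads2 and Fads3 in every sample, in counts per 1000000 of TMM-scaled library, for the 6 groups (points: samples, horizontal bar: mean, error bar: SD, n = 2 or 3). Fads1 with SR-3420 lies below its partner group in each pair, Fads3 above it, for example 272 to 369 CPM in ETO+SR-3420 against 168 to 221 CPM in ETO.

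Fads3 stood at 237 and 205 CPM in Vehicle and at 340 and 324 CPM in SR-3420. The TC samples had 349, 346 and 327 CPM and the TC+SR-3420 samples 414, 403 and 371 CPM. The ETO samples had 221, 216 and 168 CPM and the ETO+SR-3420 samples 369, 338 and 272 CPM. In all 3 pairs every sample with SR-3420 was above every sample without it, and TC cells without SR-3420 already stood at the level of SR-3420 cells. With 2 or 3 samples per group such separation can arise without a difference. The share of all genes that separate was not counted, so separation is a description here and below. The log2 fold change was 0.59 against Vehicle (SE 0.17, adjusted p = 0.0499 edgeR quasi-likelihood test, Benjamini-Hochberg adjusted over all tested genes), 0.69 against ETO (SE 0.14, adjusted p = 0.00263) and 0.22 against TC (SE 0.14, 95% confidence interval -0.07 to 0.51, adjusted p = 0.226). The call against Vehicle was at the threshold and was lost without any 1 of the 4 samples (log2 fold changes 0.49 to 0.69, adjusted p up to 0.278), while that against ETO held without each of the 6 samples in turn and was lost where only these 2 groups were fitted (0.68, adjusted p = 0.0634). With offsets for GC content and gene length, chosen after seeing the data, the value against TC became 0.33 and passed the threshold (adjusted p = 0.00212).

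Fads1 had 497 and 459 CPM in Vehicle and 344 and 412 CPM in SR-3420. The TC samples had 531, 515 and 545 CPM, against 333, 376 and 378 CPM in TC+SR-3420. The ETO samples had 395, 433 and 396 CPM, against 309, 314 and 309 CPM in ETO+SR-3420. Every sample with SR-3420 was again on 1 side, here below every sample without it, in each of the 3 pairs. The log2 fold change was -0.55 with triacsin C (SE 0.10, adjusted p = 0.00115, edgeR) and -0.39 with etomoxir (SE 0.10, adjusted p = 0.0137). Without an inhibitor it was -0.34 (SE 0.13, adjusted p = 0.128), where DESeq2 gave -0.36 with adjusted p = 0.00884. The etomoxir call was lost without ETO replicate 2 (adjusted p = 0.0632) and where only the ETO groups were fitted (-0.41, adjusted p = 0.104).

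Fads2 had 202 and 159 CPM in Vehicle and 163 and 135 CPM in SR-3420, which overlapped. The TC samples had 224, 247 and 202 CPM and the TC+SR-3420 samples 154, 143 and 115 CPM, with no overlap. The ETO samples had 149, 146 and 105 CPM and the ETO+SR-3420 samples 131, 101 and 86.2 CPM, which overlapped. With replicate numbers disregarded, the Fads2 samples separated in the triacsin C pair alone, where the log2 fold change was -0.71 (SE 0.19, adjusted p = 0.0099, edgeR). It was -0.28 without an inhibitor (95% confidence interval -0.77 to 0.22, adjusted p = 0.541) and -0.33 with etomoxir (95% confidence interval -0.74 to 0.07, adjusted p = 0.224). Each ETO+SR-3420 sample was below the ETO sample of its own replicate number. With a replicate block the etomoxir value also passed the threshold, so the fall was not particular to triacsin C. With offsets for GC content and gene length, an alternative chosen after seeing the data, the triacsin C value shrank to -0.37 (adjusted p = 0.000425), and the values without an inhibitor (-0.37, adjusted p = 0.00593) and with etomoxir (-0.23, adjusted p = 0.013) also passed the threshold.

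The levels of Fads3 relative to its neighbours were set side by side after the values had been seen, as a description. Per kilobase, Fads3 was 0.504 and 0.473 times Fads1 in the Vehicle samples and 1.05 and 0.832 times in the SR-3420 samples. In TC the ratio was 0.634 to 0.71 and in TC+SR-3420 1.04 to 1.31, and in ETO it was 0.45 to 0.592 and in ETO+SR-3420 0.934 to 1.26. All 8 samples with SR-3420 were above all 8 without it. The ratio of Fads3 to Fads2 was 0.541 to 0.595 in Vehicle and 0.961 to 1.1 in SR-3420. It was 0.646 to 0.746 in TC and 1.24 to 1.49 in TC+SR-3420, and 0.685 to 0.739 in ETO and 1.3 to 1.55 in ETO+SR-3420. Fads2 and Fads1 kept closer to each other, with group means of their ratio from 0.748 in ETO to 0.973 in TC.

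**Figure D2:**
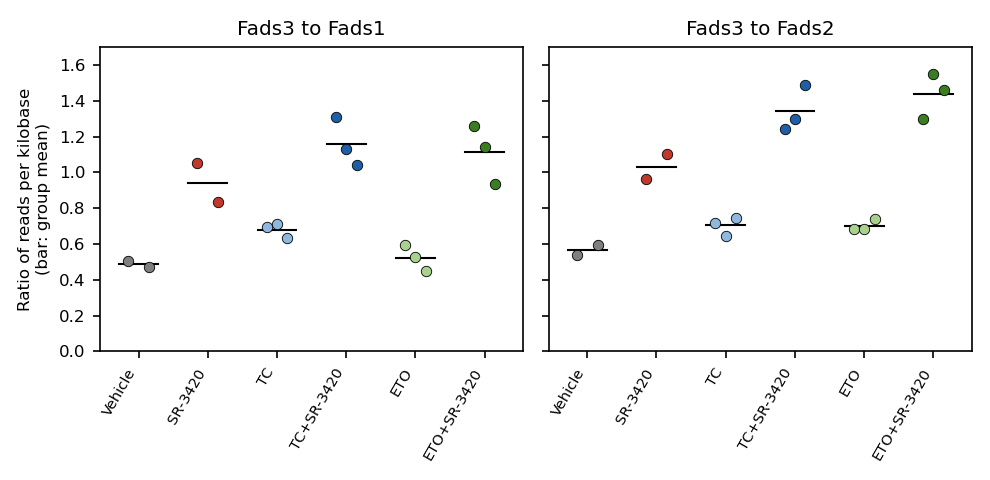
Ratio of Fads3 to Fads1 (left) and of Fads3 to Fads2 (right) in every sample, each as reads per kilobase (points: samples, bar: group mean). The samples with SR-3420 lie at 0.832 to 1.31 for Fads1 and 0.961 to 1.55 for Fads2, above all samples without it.

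Among the elongases, Elovl3 alone passed the main edgeR test in a response to SR-3420. It did so only with triacsin C, where it fell to 0.588 of its TC level. It had 10.6 and 7.84 CPM in Vehicle and 16.2 and 14.4 CPM in SR-3420. The TC samples had 15.3, 16.5 and 14.3 CPM and the TC+SR-3420 samples 10.1, 8.69 and 8.26 CPM. The SR-3420 samples were thus above Vehicle and the TC+SR-3420 samples below TC, with no overlap in either pair, and the TC+SR-3420 samples lay in the range of Vehicle. The log2 fold change was -0.77 with triacsin C (SE 0.27, adjusted p = 0.0427, edgeR) and 0.73 without an inhibitor (SE 0.33, adjusted p = 0.225). The ETO samples (8.03, 14.5 and 11.7 CPM) and the ETO+SR-3420 samples (8.59, 10.2 and 18.4 CPM) overlapped, with a log2 fold change of 0.12 (95% confidence interval -0.46 to 0.70, adjusted p = 0.796). The triacsin C call was lost without any 1 of the 6 samples (log2 fold changes -0.86 to -0.69, adjusted p up to 0.13) and with no filter on low counts (-0.70, adjusted p = 0.0799). The Elovl3 counts, 85 to 312 per sample, are few beside those of the Fads genes.

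**Figure D3:**
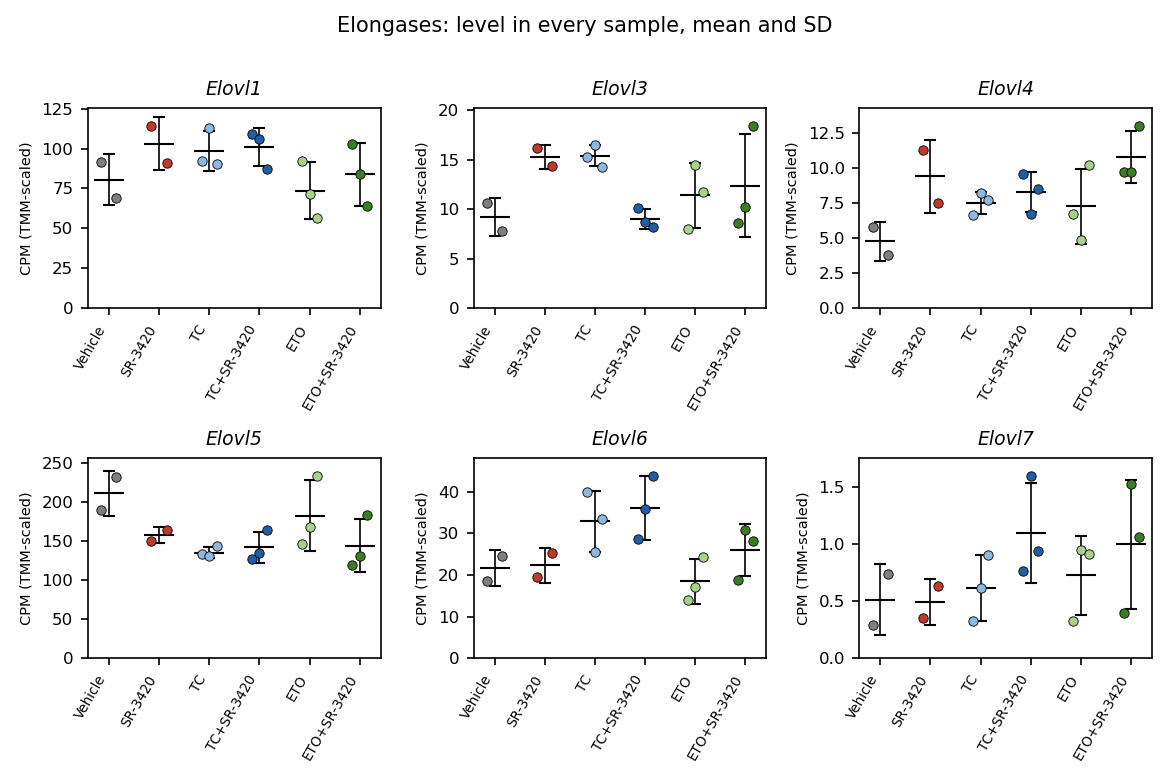
Level of the 6 tested elongases in every sample, in counts per 1000000 of TMM-scaled library, for the 6 groups (points: samples, horizontal bar: mean, error bar: SD, n = 2 or 3). Elovl3 is higher in SR-3420 and TC (14.3 to 16.5 CPM) than in Vehicle and TC+SR-3420 (7.84 to 10.6 CPM).

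Elovl5 had 190 and 231 CPM in Vehicle and 150 and 164 CPM in SR-3420, lower in both samples. The TC samples had 133, 130 and 143 CPM and the TC+SR-3420 samples 127, 135 and 164 CPM, which overlapped and were all below Vehicle. The ETO samples had 146, 168 and 233 CPM and the ETO+SR-3420 samples 119, 130 and 183 CPM, which also overlapped. Each ETO+SR-3420 sample was below the ETO sample of its own replicate number. With a replicate block the fall of Elovl5 with etomoxir passed the threshold. The edgeR log2 fold change of the SR-3420 response was -0.42 without an inhibitor (95% confidence interval -0.93 to 0.08, adjusted p = 0.326), 0.07 with triacsin C (-0.34 to 0.48, adjusted p = 0.802) and -0.34 with etomoxir (-0.76 to 0.07, adjusted p = 0.215).

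Elovl6 had 18.6 and 24.6 CPM in Vehicle and 19.4 and 25.3 CPM in SR-3420. It had 40, 25.4 and 33.4 CPM in TC, 28.6, 35.9 and 43.8 CPM in TC+SR-3420, 14, 17.1 and 24.4 CPM in ETO and 18.9, 30.8 and 28.1 CPM in ETO+SR-3420. Every TC sample, with or without SR-3420, was above every sample of Vehicle and of SR-3420 alone, and the groups overlapped in all 3 responses to SR-3420. The edgeR log2 fold changes of those responses were 0.05 (95% confidence interval -0.63 to 0.73), 0.13 (-0.42 to 0.69) and 0.49 (-0.07 to 1.05), in the order vehicle, triacsin C and etomoxir. The triacsin C value turned to -0.34 (adjusted p = 0.025) with the same offsets.

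Elovl1 ranged from 56.8 to 114 CPM over the 16 samples, and its groups overlapped in all 3 responses, with edgeR log2 fold changes of 0.35, 0.03 and 0.19 (95% confidence intervals -0.20 to 0.90, -0.42 to 0.48 and -0.26 to 0.64). With the offsets the triacsin C value became 0.33 (adjusted p = 0.0499). Elovl4 had 5.78 and 3.78 CPM in Vehicle and 11.3 and 7.55 CPM in SR-3420, without overlap. Its log2 fold change of 0.97 (SE 0.34, edgeR) did not pass the adjusted test (adjusted p = 0.103). With triacsin C its change was 0.14 (95% confidence interval -0.45 to 0.72) and with etomoxir 0.57 (0 to 1.15). Elovl7 rested on 3 to 21 counts per sample, and its intervals, the widest of the tested members, ran from -1.75 to 1.71 without an inhibitor, so a difference was not detectable at this depth.

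Counted over the 9 tested members, edgeR called 1 with SR-3420 against Vehicle (1 higher), 3 with TC+SR-3420 against TC (3 lower) and 2 with ETO+SR-3420 against ETO (1 higher, 1 lower), at adjusted p under 0.05. Of all 12786 genes, 7.54%, 36.9% and 25.3% were called in these comparisons, so the share of members called was near the background. For SR-3420 against Vehicle, 4 of the 9 had an unadjusted p under 0.05, beside 2788 of all 12786 genes. These were Elovl3, Elovl4 and Fads3, which were higher, and Fads1, which was lower. The median log2 fold change of the members was 0.05, 0.07 and 0.19, beside 0, 0.02 and 0.01 over all genes. The list as a whole therefore did not move to 1 side, and its members differed in direction.

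**Figure D4:**
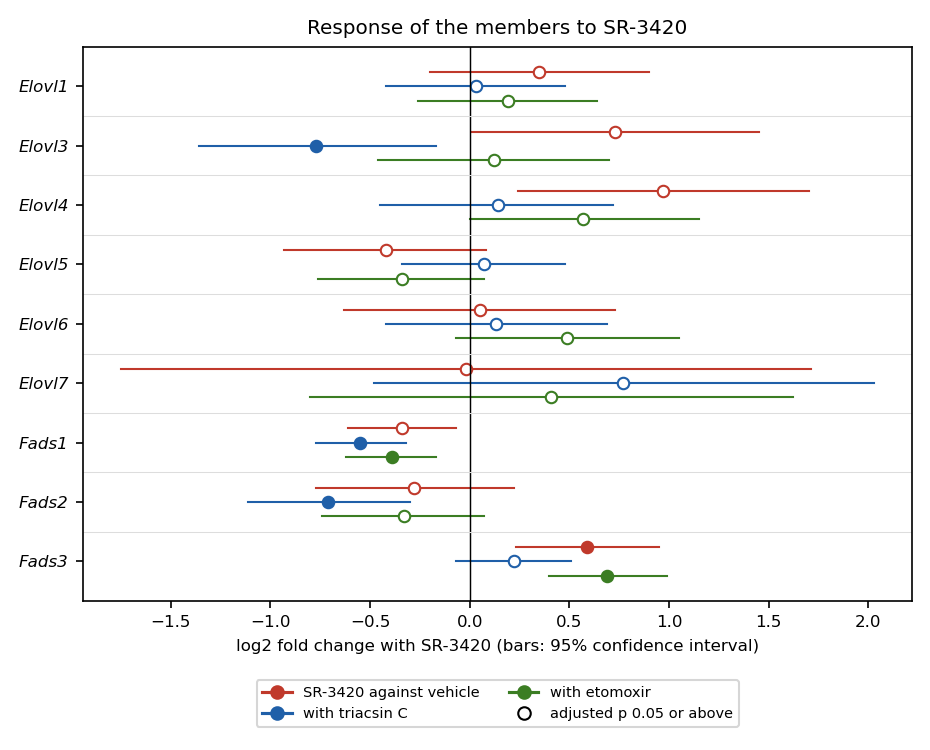
Log2 fold change of the 9 tested members with SR-3420 (edgeR) without an inhibitor, with triacsin C and with etomoxir (bars: 95% confidence interval, filled points: adjusted p under 0.05). Fads1 and Fads2 lie left of 0 in all 3 settings (-0.71 to -0.28) and Fads3 right of 0 (0.22 to 0.69).

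Triacsin C alone raised Fads3, which was 1.54-fold its Vehicle level, the TC samples lying at 327 to 349 CPM against 205 and 237 CPM (log2 fold change 0.62, SE 0.15, adjusted p = 0.0179, edgeR). This was the 1 member called of 9 tested, beside 11.7% of all genes. The call was lost without Vehicle replicate 2 (0.73, adjusted p = 0.0533), Vehicle replicate 3 (0.52, adjusted p = 0.19), TC replicate 1 (0.61, adjusted p = 0.0531) or TC replicate 2 (0.61, adjusted p = 0.0526). Elovl5 was lower in every TC sample than in Vehicle, with a log2 fold change of -0.64 (SE 0.21) and adjusted p = 0.071 by edgeR and -0.66 with adjusted p = 0.0355 by DESeq2. Elovl3 (0.73, SE 0.31, adjusted p = 0.164) and Elovl6 (0.61, SE 0.29, adjusted p = 0.228) were higher in every TC sample than in Vehicle, short of the adjusted threshold. The 4 macrophage markers summed to 16.2 to 17.9 CPM in TC and 3.97 to 6.43 CPM in Vehicle, most of it Cd68, with Ptprc at 0 to 0.825 CPM and Adgre1 at 0 to 0.215 CPM over all samples. Their part in the higher Fads3 was not tested.

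Etomoxir alone gave no called member by edgeR, 0 with an unadjusted p under 0.05, and 0 by DESeq2, where edgeR called 0.0235% and DESeq2 0.157% of all genes. Of all 12786 genes, 283 had an unadjusted p under 0.05 there. Fads2 (log2 fold change -0.44, SE 0.21) and Fads1 (-0.23, SE 0.12) were lower in every ETO sample than in both Vehicle samples, each with adjusted p = 1. Between SR-3420 cells with and without triacsin C no member was called by edgeR or DESeq2 (4.58% and 10.2% of all genes). At an unadjusted p under 0.05 there were 2 of 9 tested, beside 2494 of all 12786 genes. These were Elovl3 (-0.76, SE 0.30, adjusted p = 0.182) and Elovl6 (0.69, SE 0.29, adjusted p = 0.213). Between SR-3420 cells with and without etomoxir none was called by either tool (0.00782% and 0.789% of all genes). An unadjusted p under 0.05 was found for 2 of 9 tested, beside 1279 of all 12786 genes. They were Fads1 (-0.28, SE 0.12, adjusted p = 0.458) and Fads2 (-0.49, SE 0.21, adjusted p = 0.471). The comparisons with shared control samples are not independent of each other.

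Whether an inhibitor changed the response to SR-3420 was tested as a difference of responses. For triacsin C against no inhibitor, edgeR called 0 members (2.51% of all genes) and DESeq2 called 1 (6.51% of all genes). That member was Elovl3, with edgeR giving a difference of -1.49 (SE 0.43, 95% confidence interval -2.42 to -0.56, unadjusted p = 0.0042, adjusted p = 0.0926) and DESeq2 an adjusted p of 0.0308. Elovl3 was the 1 member of 9 tested with an unadjusted p under 0.05, beside 2130 of all 12786 genes. For the Fads genes the differences were -0.21 for Fads1 (95% confidence interval -0.56 to 0.14), -0.43 for Fads2 (-1.07 to 0.21) and -0.37 for Fads3 (-0.83 to 0.10), so the larger falls of Fads1 and Fads2 with triacsin C were not shown to differ from those without it. For etomoxir against no inhibitor, edgeR and DESeq2 called 0 members (0% and 0.0704% of all genes), and 0 had an unadjusted p under 0.05, beside 307 of all 12786 genes. The intervals were -0.41 to 0.30 for Fads1, -0.69 to 0.58 for Fads2 and -0.36 to 0.57 for Fads3. Between the inhibitors, 0 members were called by edgeR or DESeq2 (2.29% and 5.33% of all genes). An unadjusted p under 0.05 was found for 2 of 9 tested, beside 1596 of all 12786 genes. They were Elovl3 (-0.88, SE 0.39, adjusted p = 0.353) and Fads3 (-0.47, SE 0.19, adjusted p = 0.304).

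The other enzymes of the elongation cycle mostly gave values below 0. Of 7 genes listed, 6 were tested, and SR-3420 lowered 1 with triacsin C and 3 with etomoxir, with none higher, beside 36.9% and 25.3% of all genes called in either direction, so the share with triacsin C was below that of all genes. Without an inhibitor edgeR and DESeq2 called 0, and 1 had an unadjusted p under 0.05, beside 2788 of all 12786 genes. Tecr, the enoyl reductase that closes the cycle, had log2 fold changes of -0.34 (SE 0.15, adjusted p = 0.217), -0.62 (SE 0.13, adjusted p = 0.0019) and -0.38 (SE 0.12, adjusted p = 0.0404). Hacd2 (-0.85, SE 0.23) and Hacd3 (-0.59, SE 0.20), both dehydratases of the cycle, fell with etomoxir. Hsd17b12, the ketoacyl reductase, had -0.14, -0.34 and -0.34, and none of these passed. The list's median was -0.35, -0.34 and -0.36 in the 3 responses, beside 0, 0.02 and 0.01 over all genes.

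Of the 10 other desaturases and their electron donors, 9 were tested. With SR-3420 2 were called lower without an inhibitor, 5 lower and 1 higher with triacsin C, and 3 lower and 1 higher with etomoxir, beside 7.54%, 36.9% and 25.3% of all genes. Scd1, which makes oleate from stearate, had log2 fold changes of -0.77 (SE 0.29, adjusted p = 0.14), -1.51 (SE 0.24, adjusted p = 0.000366) and -1.03 (SE 0.24, adjusted p = 0.00706). Cytochrome b5, Cyb5a, which hands electrons to desaturases, fell in all 3 settings (-0.84, -1.17 and -0.92). Scd2 fell without an inhibitor (-0.92, SE 0.26) and with triacsin C (-1.02, SE 0.21, a value outside the rule for named genes, given after it was seen), and Scd4 fell with triacsin C (-1.49, SE 0.32). Degs2, a dihydroceramide desaturase, rose with triacsin C (1.20, SE 0.32) and with etomoxir (1.07, SE 0.32), so the rise of Fads3 was not the only rise among desaturases. The medians were -0.01, -0.65 and -0.31.

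**Figure D5:**
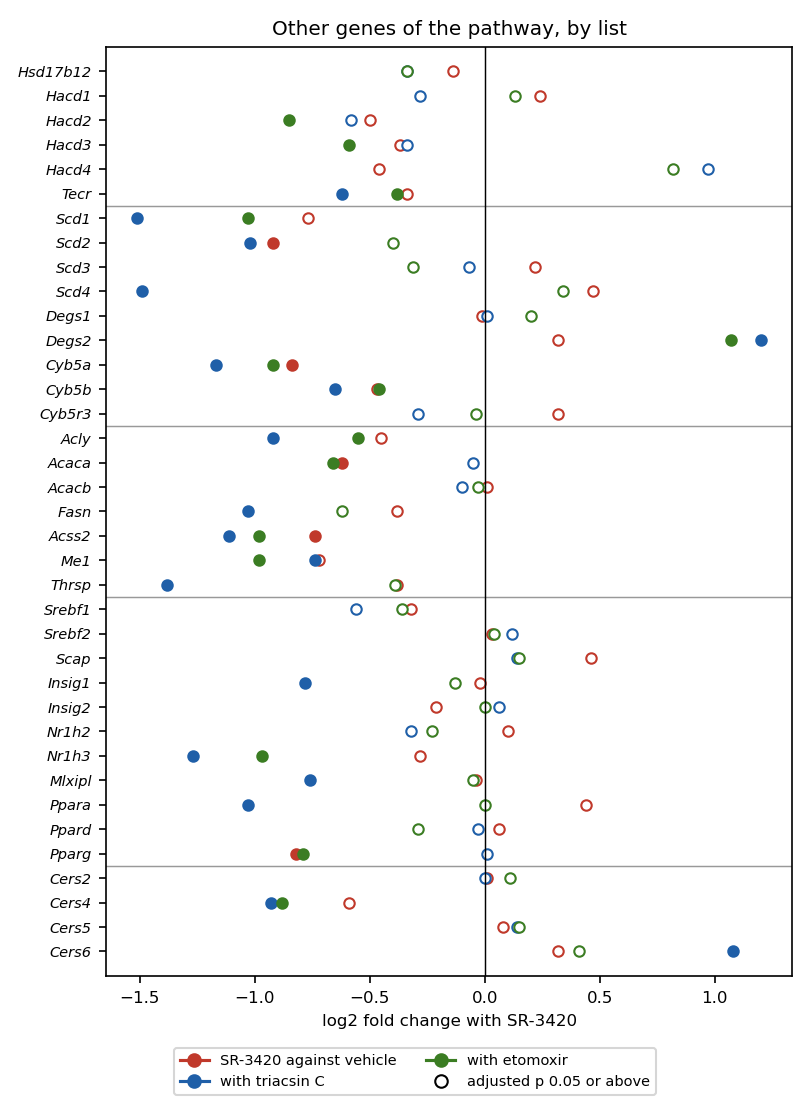
Log2 fold change with SR-3420 (edgeR) for the tested genes of 5 lists, separated by grey lines: elongation cycle, other desaturases and electron donors, fatty acid synthesis, regulators, and ceramide synthases (colours: setting, filled points: adjusted p under 0.05). Most filled points lie left of 0, and Degs2 (1.07 and 1.20) and Cers6 (1.08) are filled points right of it.

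All 7 genes of fatty acid synthesis were tested, and SR-3420 lowered 2, 5 and 4 of them to the threshold in the 3 settings and raised none, beside 7.54%, 36.9% and 25.3% of all genes. Acaca, which makes the malonyl-CoA used by the elongases, fell without an inhibitor (-0.62, SE 0.15, adjusted p = 0.0245) and with etomoxir (-0.66, SE 0.12, adjusted p = 0.00184). With triacsin C its value was -0.05 (adjusted p = 0.793), and triacsin C alone had lowered it (-1.31, SE 0.13, adjusted p = 3.64e-05, edgeR). Fasn, the fatty acid synthase, fell with triacsin C (-1.03, SE 0.36, adjusted p = 0.0364) and had -0.38 and -0.62 in the other settings, which did not pass. Acss2, the cytosolic acetyl-CoA synthetase, fell in all 3 (-0.74, -1.11 and -0.98), Thrsp fell with triacsin C (-1.38, SE 0.28), and Me1, the malic enzyme, fell with etomoxir (-0.98, SE 0.18) and with triacsin C (-0.74, SE 0.18, again outside the rule and given after it was seen). The medians of the list were -0.45, -0.92 and -0.62.

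Of 11 regulators, all tested, SR-3420 lowered 1, 4 and 2 to the threshold and raised none, shares close to or below the 7.54%, 36.9% and 25.3% of all genes called. Srebf1, which encodes SREBP-1, had -0.32, -0.56 and -0.36 (adjusted p = 0.678, 0.169 and 0.433, edgeR), none past the threshold. Nr1h3, which encodes LXR alpha, fell with triacsin C (-1.27, SE 0.30) and with etomoxir (-0.97, SE 0.30). Pparg fell without an inhibitor (-0.82, SE 0.21) and with etomoxir (-0.79, SE 0.17), and Ppara with triacsin C (-1.03, SE 0.23). Insig1 fell with triacsin C too (-0.78, SE 0.26, adjusted p = 0.0311, edgeR). Triacsin C alone lowered Pparg (-1.48, SE 0.19) and Ppara (-0.83, SE 0.25). Transcript levels of a regulator do not give its activity, and the part of these genes in the falls of Fads1 and Fads2 was not tested.

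Marker levels of adipocytes and preadipocytes differed between the groups as well. The summed level of 10 brown adipocyte markers was 13200 to 14500 CPM in Vehicle and 9740 to 10800 CPM in SR-3420. It was 14500 to 15700 CPM in TC and 5840 to 6180 CPM in TC+SR-3420, and 12900 to 14100 CPM in ETO and 5530 to 9500 CPM in ETO+SR-3420. With SR-3420, 1 of 9 tested markers was called without an inhibitor (lower), 5 with triacsin C (4 lower, 1 higher) and 4 with etomoxir (all lower), beside 7.54%, 36.9% and 25.3% of all genes, and the list medians were -0.07, -0.43 and -0.46. The abundant Fabp4 and Adipoq make up most of the sum (log2 fold changes -0.52 and -0.58 without an inhibitor, neither called), and Ucp1 (0.84) and Cidea (0.76) had values above 0 there, also not called. The 6 preadipocyte markers summed to 1110 to 1350 CPM in Vehicle and 2280 to 3320 CPM in SR-3420, to 1430 to 1930 CPM in TC and 2420 to 3860 CPM in TC+SR-3420, and to 717 to 1720 CPM in ETO and 1780 to 3920 CPM in ETO+SR-3420. Most of each sum was Col1a1 (612 to 3670 CPM over all samples). Col1a1 was not called without an inhibitor (log2 fold change 1.24, adjusted p = 0.0946, edgeR) or with triacsin C (0.9, adjusted p = 0.0525). It was called with etomoxir (1.27, adjusted p = 0.016). Pdgfra, Dlk1, Ly6a, Thy1 and Cd34 had medians of 2.54 to 64.9 CPM. Of the 6 preadipocyte markers, edgeR called 3 higher with triacsin C and 4 with etomoxir, beside the shares of all genes given above. Without an inhibitor it called 0 and DESeq2 called 2. There 3 had an unadjusted p under 0.05, beside 2788 of all 12786 genes. Their part in the rise of Fads3 and in the falls of Fads1, Fads2 and Elovl3 was not tested.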

How the data were processed

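RNA-seq counts of 16 samples in 6 groups, named by the labels, were used. The authors mapped reads to mm9 with STAR 2.4.2a, let each position count once per read length with HOMER and counted reads per gene with iRNA-seq, and the deposited whole-number counts carry no normalization. That filter can cap short, abundant genes. Strand use is not given in the sources used here. All 12786 genes passing filterByExpr were fitted with edgeR 4.0.16 in R 4.3.3 (limma 3.58.1), with TMM scaling, a mean per group and the quasi-likelihood test, and p-values were Benjamini-Hochberg adjusted over all of them. SE is the log2 fold change divided by the root of F. DESeq2 1.42.0 was an alternative, as were other filters, scalings, sample sets, a replicate block and leaving out samples. Library totals and offsets for GC content and length were added after seeing the data. The fit was tested on simulated data. RPKM divides CPM by the counted length. Members and gene lists were chosen with earlier results of these data known. All members were named, Scd1, Hsd17b12, Tecr, Fasn, Acaca and Srebf1 always, and otherwise at most 3 called genes per list and comparison by size of change. Genes most like a member were the 3 with the highest Pearson correlation of log2 CPM (prior count 2, mean normalized count at least 50). Figures were drawn with matplotlib. The 14 pairs of samples within a group differed by more than counting noise (chi-square per degree of freedom 4.36 to 160), so none was counted as a copy of another, which does not show that they came from separate cultures.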

Additional observations from a re-analysis of the deposited data

How the results depend on the processing

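The numbers of members called depended on the processing. For SR-3420 against Vehicle (1 called), DESeq2 size factors, no filter, at least 10 counts in every sample, library totals and fitting only the compared groups gave 0, DESeq2 gave 2 and offsets for GC content and length gave 3. The offsets gave 6 for TC+SR-3420 against TC, 5 for ETO+SR-3420 against ETO, 3 for TC against Vehicle, 3 for TC+SR-3420 against SR-3420, 1 for the response with TC minus that without inhibitor and 2 for the response with TC minus that with ETO. DESeq2 gave 2 for TC against Vehicle and 1 for the response with TC minus that without inhibitor. Fitting only the compared groups gave 0 for ETO+SR-3420 against ETO, 2 for TC against Vehicle and 1 for the response with TC minus that without inhibitor. Leaving out each sample in turn gave 0 for SR-3420 against Vehicle in all 4 fits, 0 to 1 for TC against Vehicle, 1 to 3 for ETO+SR-3420 against ETO and 2 in all 6 fits for TC+SR-3420 against TC, which each lost Elovl3. Where this left 1 sample in a group, that sample was assumed to vary like the others. Fads1 and Fads2 with triacsin C and Fads3 with etomoxir stayed called in all 6 such fits each.

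Directions turned for small changes. With library totals, which moved the median gene by -0.117 for SR-3420 against Vehicle, 0.102 for ETO+SR-3420 against SR-3420 and 0.134 for the response with TC minus that without inhibitor, Elovl6 went to -0.06 (SR-3420 against Vehicle), Elovl1 to 0.04 (TC+SR-3420 against SR-3420) and Fads3 to 0.07 (ETO+SR-3420 against SR-3420). With the offsets, 16 log2 fold changes turned: Elovl7 to 0.18 for SR-3420 against Vehicle. For TC+SR-3420 against TC, Elovl4 went to -0.04, Elovl5 to -0.08 and Elovl6 to -0.34. For TC+SR-3420 against SR-3420, Elovl1 went to 0.06, Fads1 to 0.03 and Fads2 to 0.05, and for ETO+SR-3420 against SR-3420, Elovl4 to -0.14, Elovl6 to -0.11 and Fads3 to 0.13. In the response with TC minus that without inhibitor, Elovl6 went to -0.51 and Fads2 to 0. With ETO minus without inhibitor, Elovl5 went to -0.08, Fads1 to 0 and Fads2 to 0.14, and with TC minus with ETO, Elovl1 to 0. The causes were not tested. A GC content was matched for 92.9% of genes. With the offsets Fads3 kept values of 0.50, 0.33 and 0.72 in the 3 responses to SR-3420 and Fads2 had -0.37, -0.37 and -0.23, all past the threshold.

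The replicate numbers are shared between groups by the labels, which do not say what they mark. Over 35 same-numbered pairs the correlation of deviations averaged 0.41 (-0.29 to 0.83, 8 at or under 0.1), and 11 of 16 samples correlated best with their own number, against a mean of -0.2 over 71 other pairs. Samples with a shared number thus tended to deviate together, though not every pair was over 0.1. The main test left the replicate numbers out, so its calls and non-calls disregard a possible pairing. The block was kept as an alternative. With a replicate block 4 members were called for ETO+SR-3420 against ETO, the 2 gained being Fads2 (-0.33, adjusted p = 0.0174) and Elovl5 (-0.34, adjusted p = 0.0218), and 3 for TC against Vehicle, the 2 gained being Elovl5 (-0.55, adjusted p = 0.00535) and Elovl6 (0.72, adjusted p = 0.0378). It called 1 member each for TC+SR-3420 against SR-3420 (Elovl6, 0.71, adjusted p = 0.0383), ETO+SR-3420 against SR-3420 (Fads2, -0.54, adjusted p = 0.0279), the response with TC minus that without inhibitor (Elovl3, -1.60, adjusted p = 0.0257) and the response with TC minus that with ETO (Fads3, -0.48, adjusted p = 0.039). With the block Elovl7 went to 0.53 for SR-3420 against Vehicle and to -0.12 in the response with ETO minus that without inhibitor, and Elovl6 to -0.01 in the response with TC minus that without inhibitor. Depth limits Elovl2 and Elovl7 most, with up to 1 and up to 21 counts in a sample.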

Other observations

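Ceramide synthases join acyl chains, some of them products of elongases, to sphingoid bases. Of 6 listed, 5 were in the table and 4 were tested. With SR-3420, edgeR called 2 of the 4 with triacsin C and 1 with etomoxir, beside 36.9% and 25.3% of all genes. The list was thus near the background in these responses. Cers4 fell with triacsin C (log2 fold change -0.93, SE 0.18, adjusted p = 0.00114, edgeR) and with etomoxir (-0.88, SE 0.17, adjusted p = 0.00267), and Cers6 rose with triacsin C (1.08, SE 0.26, adjusted p = 0.00511). Without an inhibitor edgeR and DESeq2 called 0, and 1 had an unadjusted p under 0.05, beside 2788 of all 12786 genes. Between SR-3420 cells with and without triacsin C, Cers4 was lower with it (-0.76, SE 0.19, adjusted p = 0.0401, edgeR). It was the 1 called of 4 tested, beside 4.58% of all genes.

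The genes whose log2 CPM followed a member most closely over the 16 samples are given as a description, since these samples share the treatments. For Fads2 they were Mvd, an enzyme of the mevalonate pathway (Pearson r = 0.979), Chpf2 (0.975) and Cdkn2b (0.97). For Fads1 they were Pmvk, also of the mevalonate pathway (0.958), Atp5j (0.955) and Dynll2 (0.954). For Fads3 they were Nop2 (0.984), Pdlim7 (0.98) and Phlda1 (0.98). Elovl3 had no gene as close, the nearest being Cox11 (0.777), Vhl (0.758) and Tada2b (0.742). Among the members, Fads1 and Fads2 had r = 0.79, Fads3 had 0.77 with Elovl1 and -0.81 with Elovl5, and Fads3 had -0.22 with Fads1 and 0.17 with Fads2.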
